A study of Mus musculus with 191 samples.

Results

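Daily changes in transcript level were followed in the ear skin of control mice, in 16 libraries out of 191 in the series, 1 library at each of 16 Zeitgeber times (ZT, hours after lights on) from ZT1 to ZT24, spaced by 1 or 2 h. All 16 skin libraries labelled as control were used. The mice were labelled as wild type of strain C57BL/6 and as given diphtheria toxin (DT), the agent that kills cells carrying its receptor. The protocol states an intraperitoneal DT dose of 10 µg/kg on 2 consecutive days, with collection on the third day, under the toxin model. Ear skin was taken after perfusion of the mouse with saline and frozen whole, so dermis, epidermis, hair follicles, cartilage and muscle were read together. The study ran these mice beside 16 mice labelled Mrp8CRE; iDTR, also given DT, and 15 labelled Mrp8CRE; Bmal1-flox with no treatment and no library at ZT 16. Mrp8CRE is a Cre driver used to reach neutrophils, iDTR is a Cre-dependent DT receptor, and Bmal1-flox is a floxed form of Arntl, the gene for the clock protein BMAL1. The labels give no age or sex, and they do not say which mice lived in light cabinets inverted by 12 h. Because there was 1 mouse per time, no ZT has a replicate. Each p-value below weighs the size of a wave, or of a difference between waves, against the scatter of single mice around it.

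The circadian clock of a cell is a loop of transcription factors. BMAL1, paired with CLOCK or NPAS2, switches on the Per, Cry and Nr1d genes, and the PER and CRY proteins later shut that pair off. The REV-ERB proteins (from Nr1d1 and Nr1d2) repress Arntl, Npas2 and Cry1, and the ROR proteins activate the same sites. In skin, clocks run in keratinocytes, fibroblasts, hair follicles and immune cells, and they are known for timing cell division, repair and metabolism.

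Depth was between 10.3 and 17.6 M recovered reads per control library (median 14.3 M; M is the mega prefix). The deposited unit is a linear normalized signal relative to library size, and 1 read was worth between 0.0564 and 0.0964 units. The skin markers Krt5 and Krt14 (basal keratins) were at 4645 or more and 3328 or more in every control library, and Lor (loricrin of the cornified layer) was at 3166 or more. Every control library had the pattern of a male mouse, with Xist at 1.43 or less and the Y-linked Ddx3y at 109 or more. One value goes against taking the groups at their labels: Gt(ROSA)26Sor, the transcript of the locus that carries the iDTR cassette, was between 0.225 and 1.83 in control and between 0.242 and 1.53 in iDTR, but between 21.0 and 30.2 in Bmal1-flox. The groups also differed in Hbegf, the mouse counterpart of the gene the DT receptor comes from, at 5.55 to 21.2 in control, 20.7 to 51.3 in iDTR and 8.02 to 22.6 in Bmal1-flox, so control and iDTR overlapped slightly. Krt14 was between 3328 and 4903 in control and between 5729 and 11245 in iDTR, with no overlap. Whether the libraries labelled WT carried a modified locus was not tested, and the comparisons between groups below rest on the labels.

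The control libraries also differed among themselves in what tissue they held. Krt71 (inner root sheath of the hair follicle) ranged from 2.33 at ZT1 to 202 at ZT15. The summed signal of 18 skeletal muscle genes ran from 7126 at ZT16 to 15914 at ZT7, and that of 7 red cell genes from 17.0 at ZT15 to 396 at ZT10. The immediate early gene Fosb, which responds within minutes to handling and injury, ranged from 5.20 at ZT4 to 558 at ZT1. One measure split by hour, and equally by the number in the mouse's title, which orders the hours from ZT4. Hour and title number cannot be told apart here. Rpl23a encodes a ribosomal protein and Rpl23a-ps3 is its pseudogene, so short reads can be assigned to either, and the pseudogene's percent of their summed signal lay between 7.69% and 19.3% from ZT4 to ZT13 and between 24.0% and 44.2% in all other libraries.

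**Figure D1:**
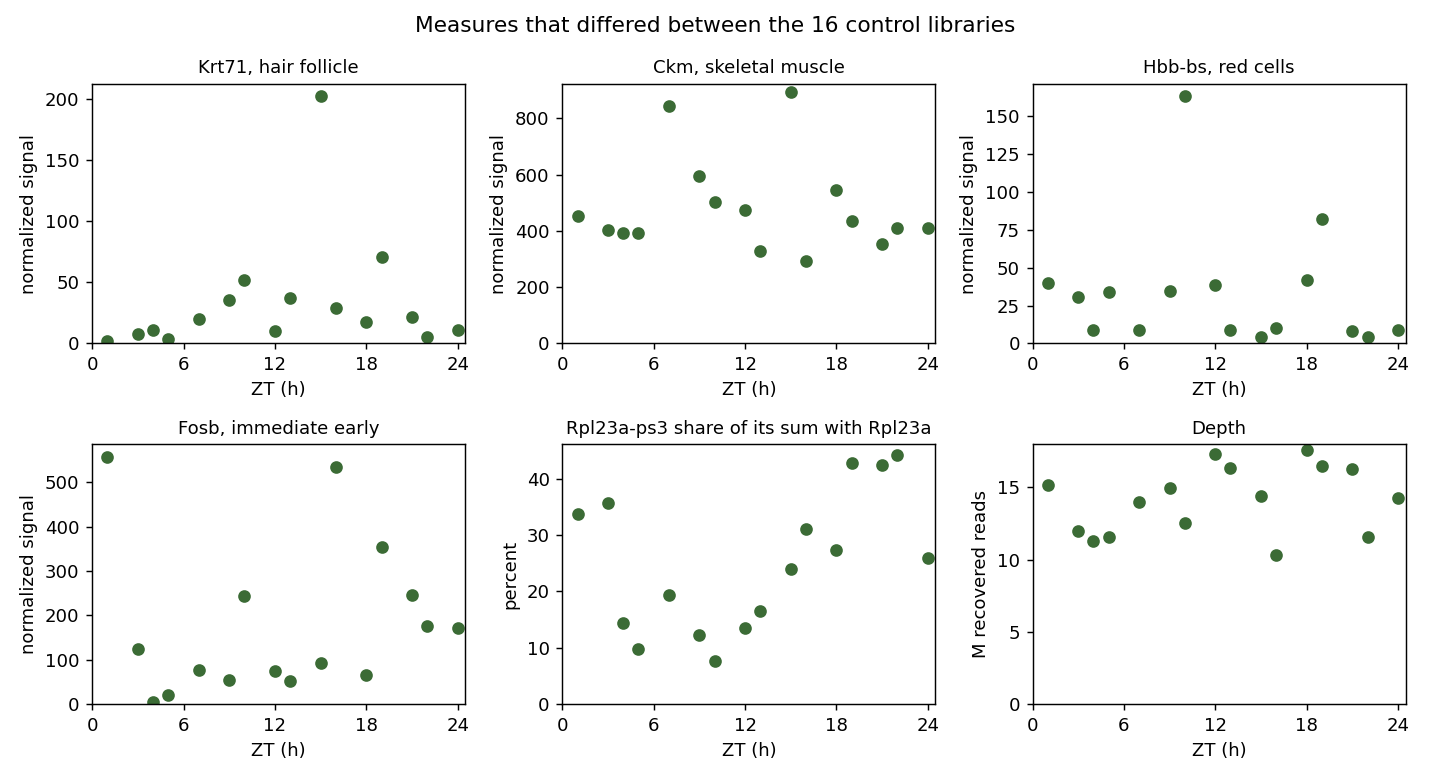
Each point is 1 control library, placed by its ZT in hours; the y axes give normalized signal for 4 marker genes, the percent of Rpl23a-ps3 in its sum with Rpl23a, and depth in M recovered reads. Krt71 stands apart at ZT15 and Hbb-bs (a hemoglobin gene) at ZT10, while the Rpl23a-ps3 percent was under 20% from ZT4 to ZT13 and higher elsewhere.

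Fitting a cosine and a sine of 24 h to log2(value + 1) over the 16 libraries, with limma's F test and Benjamini-Hochberg adjustment over all 15989 genes with a mean signal of at least 1, gave 72 rhythmic genes at an adjusted p under 0.05, which is 0.45% of the genes tested. A further view without adjustment found 1880 of the 15989 genes at p under 0.05. These shares of all genes are the background for the counts of each gene list below. The core clock list held 19 tested genes, and 14 of them passed. The 72 amplitudes (mean to peak on the log2 scale) ran from 0.14 to 1.35, so peak to trough folds from 1.22 to 6.50, with a median amplitude of 0.36. The median over all genes tested was 0.079. Peaks fell around the clock: 20 in ZT0 to 6, 25 in ZT6 to 12, 12 in ZT12 to 18 and 15 in ZT18 to 24. Of all genes tested, 22.7%, 26.1%, 23.7% and 27.4% had their fitted peak in these spans of hours. On the p scale, Clock and Lix1l were the last genes inside the threshold (adjusted p = 0.0445 each) and Mthfd1l (0.0551) and Golim4 (0.0578) the first outside.

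**Figure D2:**
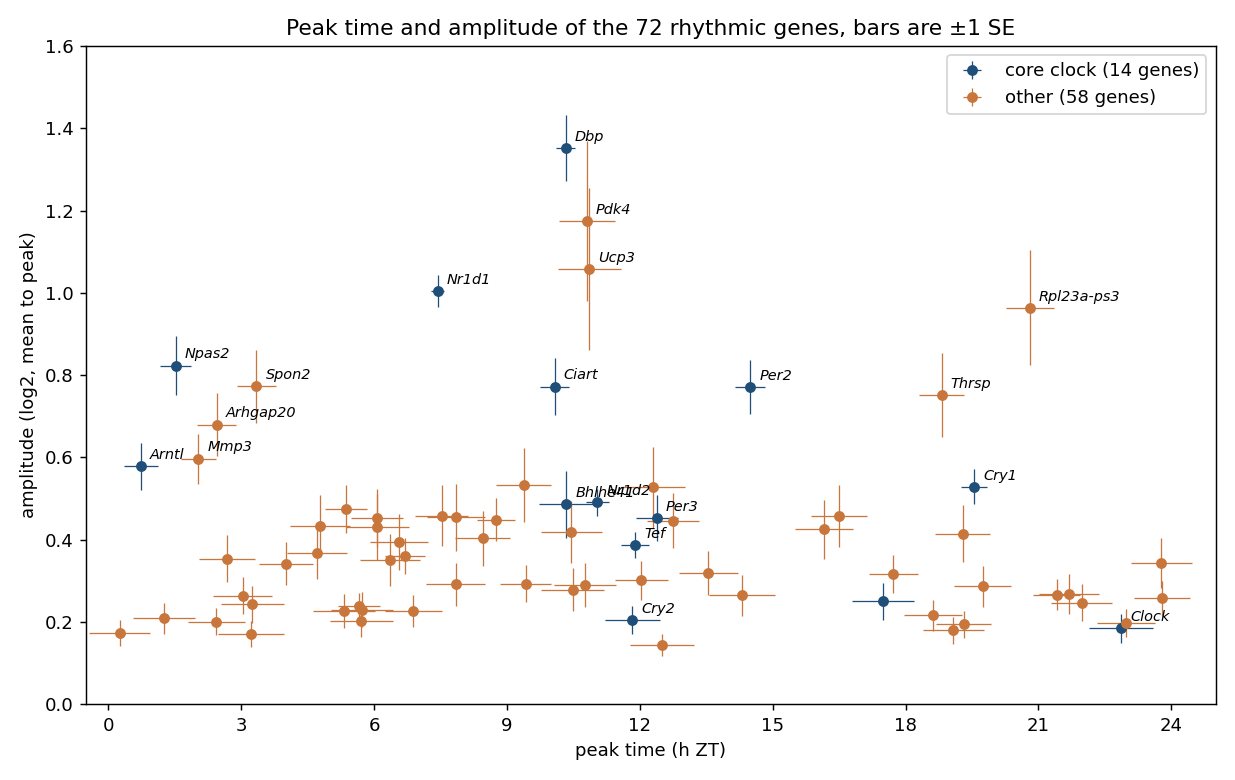
Each point is 1 of the 72 rhythmic genes, with fitted peak time in h ZT on the x axis and amplitude (log2, mean to peak) on the y axis; bars are 1 SE to each side. Dbp, Pdk4, Ucp3 and Nr1d1 reached amplitudes above 1, and most genes outside the core clock lay under 0.5.

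The activators of the loop peaked around lights on. Arntl (ENSMUSG00000055116, chromosome 7), which encodes BMAL1, had a lowest signal of 19.3 at ZT10, a median of 38.5 and a highest of 62.4 at ZT24. Its values were at 46 or more in all libraries from ZT21 to ZT5 and under 42 in all others. The fitted peak was at ZT0.733 (SE 0.39 h) with an amplitude of 0.58 (SE 0.058, 2.23-fold; adjusted p = 5.9e-05). Npas2, the alternative partner of BMAL1, fell from 23.7 at ZT1 to 5.64 at ZT10 and peaked at ZT1.52 (3.13-fold; adjusted p = 1.1e-05). Clock itself moved little: its lowest signal was 80.7 at ZT9, its median 102 and its highest 117 at ZT24, a 1.29-fold wave with its peak at ZT22.9 (adjusted p = 0.0445). Rora did not pass (adjusted p = 0.548).

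The REV-ERB genes peaked by day. Nr1d1, with the smallest p of all genes tested (ENSMUSG00000020889, chromosome 11, 98767932 to 98775333) was at its lowest of 59.3 at ZT21, had a median of 128 and reached 276 at ZT7. Its signal stood at 186 or more in every library from ZT3 to ZT10 and at 68 or less in the libraries at ZT18, 19, 21 and 22, so those blocks did not overlap. The amplitude was 1.00 (SE 0.040), a 4.03-fold wave peaking at ZT7.44 (SE 0.15 h; adjusted p = 7.6e-11). Nr1d2 followed at ZT11.0 (1.97-fold; adjusted p = 4.5e-07), with 96.9 at ZT24 and 220 at ZT10. Its peak was later than that of Nr1d1 by more than the SE of both.

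Dbp and Tef encode PAR bZIP factors, outputs of the loop that bind D-box sites. Dbp (ENSMUSG00000059824, chromosome 7, 45705088 to 45710203) had the widest wave of all genes that passed. Its signal was 14.5 at ZT24, 50.2 at the median and 141 at ZT10, with 133 at ZT9 and under 22 at ZT1, 21, 22 and 24. The fit gave a 6.50-fold change with the peak at ZT10.3 (amplitude 1.35, SE 0.080; adjusted p = 5.0e-08). Tef rose from 208 at ZT24 to 384 at ZT13 (1.71-fold, peak ZT11.9; adjusted p = 3.7e-06). The third PAR bZIP gene, Hlf, stayed between 183 and 241 (adjusted p = 0.730). Nfil3, whose protein competes for the same D-box sites, ran from 5.49 at ZT10 to 20.03 at ZT24 and missed the threshold (adjusted p = 0.0755).

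The rhythmic Per and Cry genes had fitted peaks from ZT11.8 to ZT19.5. Per3 had its fitted peak at ZT12.4 (1.87-fold, 69.4 at ZT1 to 166 at ZT10; adjusted p = 7.4e-04) and Per2 at ZT14.5 (2.91-fold; adjusted p = 9.3e-06). Per2 was between 23.4 and 27.1 in all 7 libraries from ZT22 to ZT7 and at 41.8 or more in the other 9, with its highest value of 84.7 at ZT16. Cry1 peaked later, at ZT19.5 (2.08-fold; adjusted p = 3.7e-06), with 24.4 at ZT7, a median of 38.5 and 58.7 at ZT21. Its paralog Cry2 had a 1.33-fold wave with a peak at ZT11.8 (adjusted p = 0.0195). Per1, which is also induced acutely by stress hormones and light, scattered: 76.7 at ZT4, 225 at ZT3, 300 at ZT9 and 229 at ZT15, and it did not pass (adjusted p = 0.543). The accessory repressor Ciart (CHRONO) ran from 11.7 at ZT21 to 48.2 at ZT9 (2.92-fold, peak ZT10.1; adjusted p = 1.1e-05) and Bhlhe41 (DEC2) from 25.5 at ZT24 to 71.0 at ZT10 (1.96-fold, peak ZT10.3; adjusted p = 0.0203). Bhlhe40 (DEC1) was between 50.7 at ZT24 and 101 at ZT9 and did not pass (adjusted p = 0.198).

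**Figure D3:**
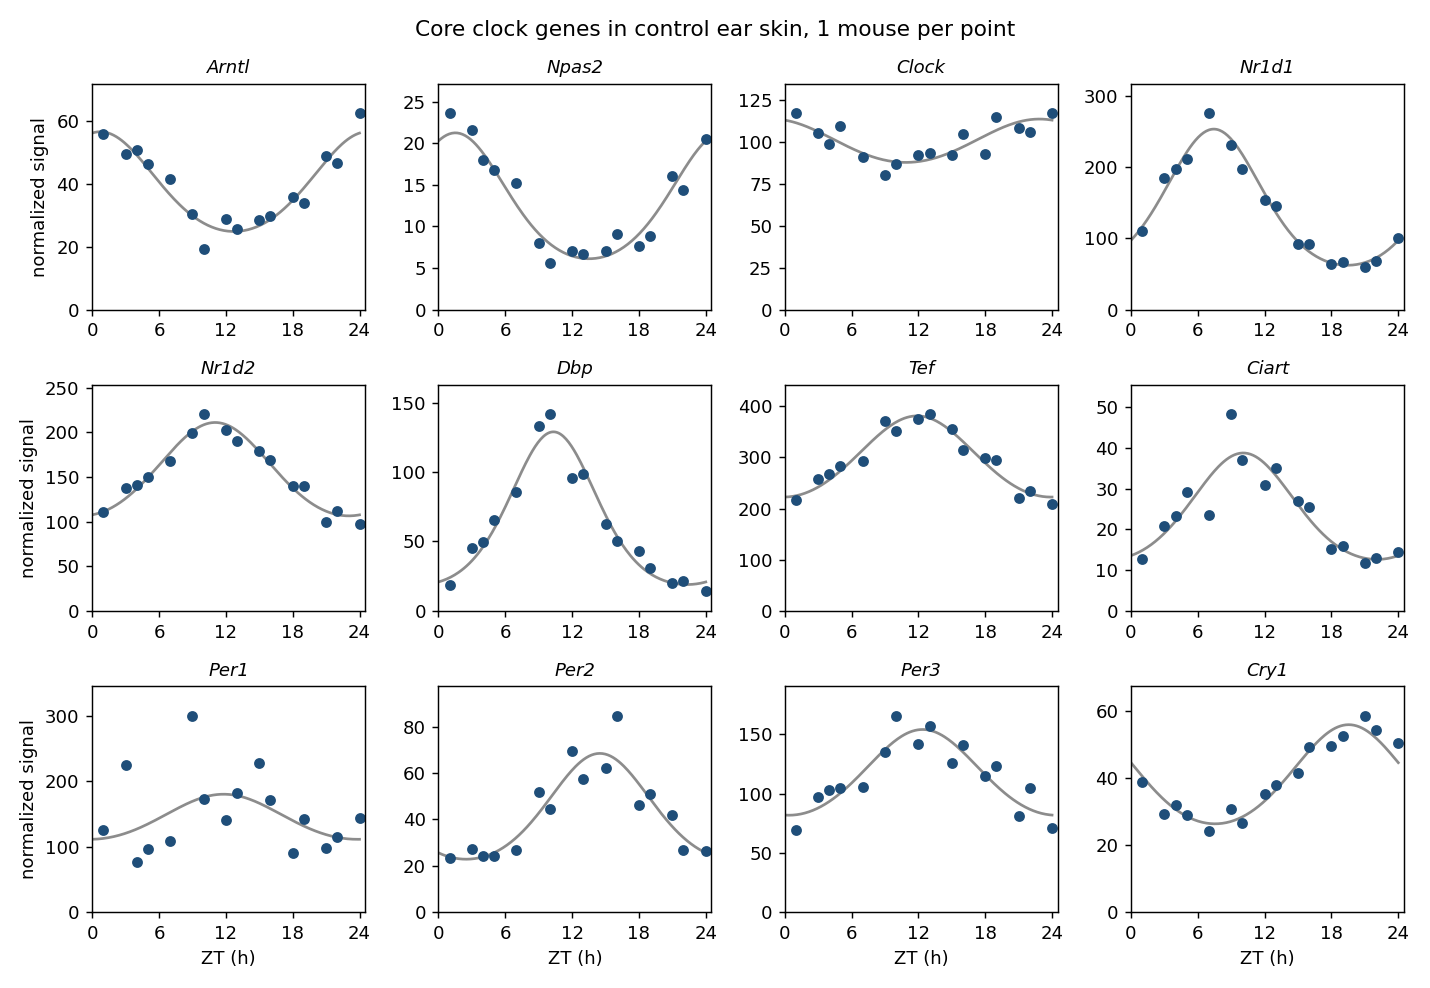
Normalized signal (y axis) of 12 core clock genes against ZT in hours (x axis); each point is 1 control mouse and the grey line is the fitted 24 h wave. Arntl and Npas2 are high around ZT24 and ZT1, Nr1d1 at ZT7, Dbp at ZT9 and ZT10, Per2 at ZT16 and Cry1 at ZT21, while Per1 scatters around its wave.

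Read in order, 13 rhythmic clock genes ran Arntl, Npas2, Nr1d1, Ciart, Dbp, Bhlhe41, Nr1d2, Cry2, Tef, Per3, Per2, Cry1 and Clock. The gap to the next gene exceeded 2 combined SE at 6 of the 13 steps, a description that treats the genes' errors as independent although they come from the same mice. Those steps were from Npas2 to Nr1d1, Nr1d1 to Ciart, Per3 to Per2, Per2 to Cry1, Cry1 to Clock and Clock to Arntl. From Ciart at ZT10.1 to Per3 at ZT12.4, no gap between neighbours exceeded 2 combined SE.

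The 250 bases before the annotated starts of the rhythmic genes were searched on both strands for the letters of 3 motifs. These were the E-box CACGTG of BMAL1 pairs, the D-box TTATGTAA of DBP and TEF, and TNGGTCA. The last is a loosened form of the REV-ERB and ROR site, in which N is any base where the usual site has A or G. Promoters came from the RefSeq table on GRCm38.p6, which held 53 of the 72 rhythmic genes and 12 of the 14 clock genes. Per2 was not among them. The stretches that hold matches are printed 5′ to 3′ on the gene's strand, cut at any annotated exon, with matches in capitals.
Ciart: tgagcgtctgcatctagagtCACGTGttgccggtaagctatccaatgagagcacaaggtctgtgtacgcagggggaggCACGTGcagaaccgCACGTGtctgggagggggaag
Bhlhe41: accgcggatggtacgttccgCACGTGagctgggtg
Cry1: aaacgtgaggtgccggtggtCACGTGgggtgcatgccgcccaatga
Tef: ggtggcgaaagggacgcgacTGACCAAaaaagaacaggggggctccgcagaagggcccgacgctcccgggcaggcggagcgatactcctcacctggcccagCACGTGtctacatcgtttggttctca
Per3: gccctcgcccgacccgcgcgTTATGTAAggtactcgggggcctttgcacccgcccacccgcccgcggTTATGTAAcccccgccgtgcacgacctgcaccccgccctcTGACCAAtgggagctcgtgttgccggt
Arntl: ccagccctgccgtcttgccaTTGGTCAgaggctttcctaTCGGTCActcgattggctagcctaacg
Cry2: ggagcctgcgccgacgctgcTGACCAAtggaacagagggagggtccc
The Ciart stretch is chr3:95882252-95882364 (minus strand), Bhlhe41 chr6:145865559-145865593 (minus), Cry1 chr10:85185089-85185134 (minus), Tef chr15:81811175-81811301 (plus), Per3 chr4:151044757-151044890 (minus), Arntl chr7:113207245-113207310 (plus) and Cry2 chr2:92434176-92434222 (minus).

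Ciart carried 3 E-boxes and Bhlhe41, Cry1 and Tef 1 in each stretch, so 4 of 12 clock genes had the letters. The share was 9.41% of the 11692 tested genes with a promoter and 6.86% of all 27025 genes in the promoter table. The peaks of these 4 genes were at ZT10.1, 10.3, 19.5 and 11.9, so Cry1 stood apart from the others in time. Per3 held the D-box letters at 2 places, which 0.59% of tested genes and 0.977% of all genes in the table have at least once. The TNGGTCA letters were in Arntl (at 2 places), Cry2, Per3 and Tef, against 9.85% of tested genes and 10.5% of all genes in the table. All printed matches have T or C at the N, so none has the A or G of the usual REV-ERB and ROR site. The matches overlap the letters CCAAT of another common promoter motif at 1 place each in Arntl, Cry2 and Per3. Of the 41 rhythmic genes outside the clock with a promoter, 3 had an E-box (Pfkfb3, Snx18 and Tspan4), none the D-box and 6 TNGGTCA. A match describes letters in these windows and does not show binding.

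Outside the core clock, 58 genes passed, and Mmp3, Arhgap20 and Spon2 had the smallest p-values. Mmp3 (stromelysin, a protease that cleaves matrix) was between 46.6 and 65.5 in all 7 libraries at ZT22, 24, 1, 3, 4, 5 and 7 and at 40.2 or less in the others, with its lowest value of 20.04 at ZT15. The fitted peak was at ZT2.03 (2.29-fold, amplitude 0.60, SE 0.060; adjusted p = 7.0e-05). Arhgap20, a RhoGAP, fell from 21.0 at ZT1 to 5.42 at ZT13 (2.57-fold, peak ZT2.45; adjusted p = 2.9e-04). Spon2, a secreted matrix protein, had low signal throughout, from 0.972 at ZT13 to 5.29 at ZT4 (2.92-fold on the scale of value + 1, peak ZT3.34; adjusted p = 3.7e-04). Fbn1 (fibrillin 1 of elastic microfibrils; ENSMUSG00000027204, chromosome 2) was at 163 or more in all 7 libraries from ZT1 to ZT10 and at 138 or less in the other 9 (median 136, peak ZT5.36, 1.93-fold; adjusted p = 7.5e-04).

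Daytime peaks were also fitted for Col5a3, Col6a6, Sfrp2, Loxl2, Plat and Igf2. Col5a3 (collagen V) ran from 42.0 at ZT18 to 99.7 at ZT10 (peak ZT6.06, 1.87-fold; adjusted p = 0.0129), and Col6a6 (collagen VI) from 5.01 to 12.4 between the same hours (peak ZT6.08; adjusted p = 0.0424). Sfrp2, a secreted Wnt modulator of fibroblasts, peaked at ZT6.56, Loxl2, which crosslinks collagen, at ZT6.37, and Plat, tissue plasminogen activator, at ZT4.71 (adjusted p between 0.0262 and 0.0339). Igf2, a fetal growth factor, was 80.8 at ZT4 and 44.3 at ZT19 (peak ZT6.70, 1.65-fold; adjusted p = 7.4e-04). Of the 20 listed fibroblast and collagen genes, Fbn1 alone passed. The list had a median amplitude of 0.21, 10 members at an unadjusted p under 0.05, and fitted peaks of 16 members in ZT6 to 12 and of 4 in ZT0 to 6. Its summed signal was lowest at ZT19 (9342) and highest at ZT10 (21138); in whole skin, fewer fibroblasts in a piece and less RNA per fibroblast cannot be told apart.

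Il33, Thra, Cacna1g and Cdon had morning peaks. Il33, an alarmin of epithelial and stromal cells, was between 87.8 and 113 in the libraries at ZT22, 24, 1, 3, 4, 5, 7 and 10 and at 79.0 or less in the others (peak ZT2.68, 1.63-fold; adjusted p = 0.0174). Thra (thyroid hormone receptor alpha) had a small but regular wave, from 99.0 at ZT21 to 146 at ZT7 (median 117, peak ZT5.66, 1.39-fold; adjusted p = 8.8e-04). The annotated span of Thra (chromosome 11, 98740638 to 98769006, plus strand) overlaps that of Nr1d1 (98767932 to 98775333, minus strand). Nr1d1 had its lowest and highest signal in the same libraries as Thra. Whether reads of Nr1d1 entered the Thra value was not tested. Cacna1g, a T-type calcium channel, peaked at ZT4.01 (28.9 at ZT15 to 60.3 at ZT4; adjusted p = 0.0118), and Cdon, a hedgehog co-receptor, at ZT3.03 (adjusted p = 0.0228). Of 17 tested cytokine and pattern receptor genes Il33 was the member that passed, and of 23 tested chemokine and receptor genes none did (Ccl11, the smallest p, adjusted p = 0.108).

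Pdk4, Ucp3 and Pfkfb3 peaked in the later light phase. Pdk4 (ENSMUSG00000019577, chromosome 6), the kinase that blocks pyruvate entry into the mitochondrion, was between 33.7 and 68.5 in the 6 libraries at ZT7, 9, 10, 12, 13 and 15 and between 9.92 and 15.3 in the other 10. Ucp3, a muscle mitochondrial carrier, had the same division, with 9.25 to 20.6 against 2.31 to 6.85. Neither gene's values overlapped between those hours. The hours were grouped after the values were seen, so the division describes the values and is no test. The fitted waves were 5.10-fold with a peak at ZT10.8 (adjusted p = 0.0203) for Pdk4 and 4.33-fold with a peak at ZT10.9 (adjusted p = 0.0426) for Ucp3. Pfkfb3, which drives glycolysis through fructose 2,6-bisphosphate, peaked at ZT8.75 (19.2 at ZT21 to 41.6 at ZT9, 1.86-fold; adjusted p = 4.9e-04).

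Ky, Mamstr and Klhl38 peaked in the same hours. Ky, a sarcomere-associated protein, peaked at ZT7.53 (adjusted p = 0.0193), Mamstr, a MEF2 coactivator, at ZT8.45 (adjusted p = 0.0206), and Klhl38 at ZT9.38 (adjusted p = 0.0206). Of 18 listed skeletal muscle genes none passed, 3 had an unadjusted p under 0.05, and 16 had fitted peaks in ZT6 to 12 (Myh7, the smallest p, adjusted p = 0.371). Ckm, creatine kinase of muscle, was highest at ZT15 (893) and ZT7 (844). With the mean of the muscle list as a linear term in the fit, Ucp3 no longer passed, while Pdk4, Ky, Mamstr and Klhl38 still did. Ucp3 missed the threshold in 20 of the 35 alternative fits, this one among them. Mamstr missed it in 7 of 35, Pdk4 and Ky in 5 of 35 each, and Klhl38 in 5 of 34. Each of these genes missed it with the title number as a linear term. Each also missed it with the log2 Rpl23a-ps3 to Rpl23a ratio as a linear term. Within the list of 20 hypoxia and glycolysis genes, Pfkfb3 and the glucose transporter Slc2a1 passed (Slc2a1 at ZT3.22, 1.27-fold; adjusted p = 0.0435). None of 30 oxidative phosphorylation genes passed or reached an unadjusted p under 0.05, and their median amplitude was 0.032.

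Slco2a1, Cyp3a13, Fmo1 and Sema3e had fitted peaks from ZT12.0 to ZT17.7. Slco2a1, which imports prostaglandins, ran from 51.1 at ZT4 to 90.1 at ZT12 (peak ZT12.0, 1.52-fold; adjusted p = 0.0129). Cyp3a13, a cytochrome P450, ran from 12.8 at ZT21 to 32.1 at ZT13 (peak ZT12.8, 1.86-fold; adjusted p = 0.00957), and Fmo1, a flavin monooxygenase, from 24.9 at ZT5 to 85.6 at ZT15 (peak ZT16.5, 1.89-fold; adjusted p = 0.0194). Sema3e, a guidance cue for vessels and axons, was 17.0 at ZT5 and 30.9 at ZT16 (peak ZT17.7, 1.55-fold; adjusted p = 0.00665). With the mean of the hair follicle genes as a linear term, in a fit added after seeing the data, Slco2a1 and Fmo1 no longer passed. Cyp3a13 and Sema3e passed with that term, but they and Fmo1 did not with the log2 Rpl23a-ps3 to Rpl23a ratio as a term.

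Genes with night peaks included Thrsp, Id1, Id3 and Nop56. Thrsp (Spot 14), a lipogenic regulator that answers thyroid hormone and feeding, was 7.54 at ZT5, 13.1 at the median and 36.1 at ZT19, with 32.8 at ZT18 (peak ZT18.8, 2.84-fold; adjusted p = 0.00293). It was the 1 member of 17 fatty acid synthesis genes to pass, while 8 had an unadjusted p under 0.05. Id1 and Id3, inhibitors of basic helix-loop-helix factors and BMP targets, peaked at ZT19.3 (70.0 at ZT4 to 165 at ZT16, 1.78-fold; adjusted p = 0.0206) and ZT19.7 (67.6 at ZT4 to 113 at ZT21, 1.49-fold; adjusted p = 0.0265). Nop56, a box C/D snoRNP protein, and Polr1b, a subunit of RNA polymerase I, peaked at ZT19.3 and ZT19.1 (1.31-fold and 1.28-fold; adjusted p = 0.0203 and 0.0386). They were the 2 of 14 ribosome biogenesis genes that passed, 7 had an unadjusted p under 0.05, and 12 had peaks in ZT18 to 24. Of 32 cytosolic ribosomal protein genes outside Rpl23a, none passed (median amplitude 0.043). Slc4a7, a bicarbonate transporter, peaked at ZT21.4 (1.45-fold; adjusted p = 0.00556) and Cdh3, the P-cadherin of basal and follicle keratinocytes, at ZT23.0 (1.31-fold; adjusted p = 0.0262).

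**Figure D4:**
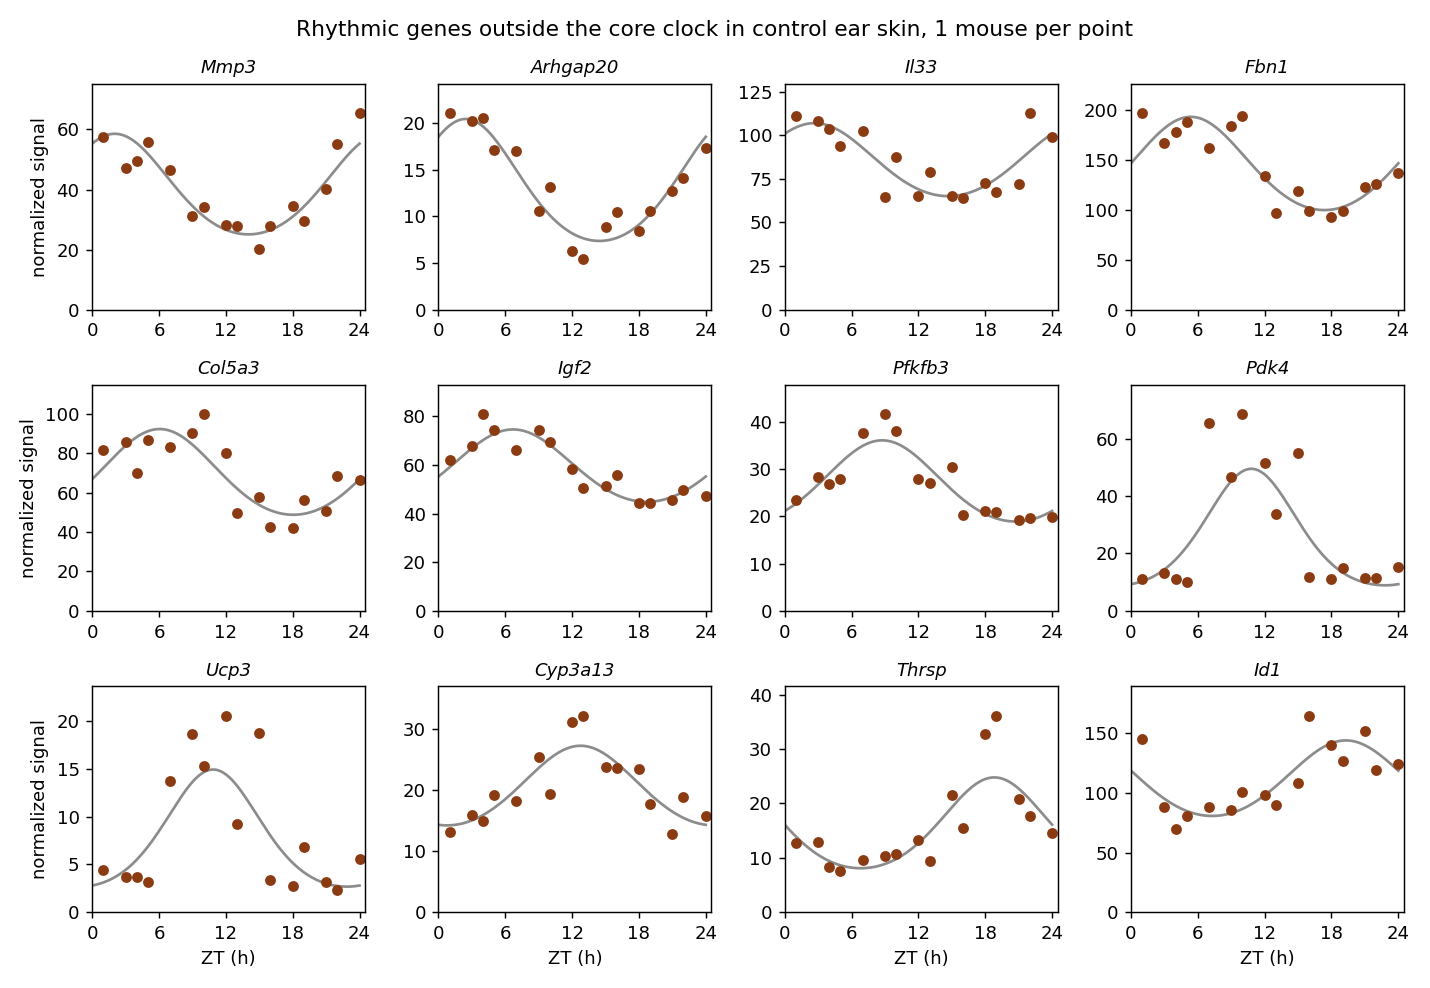
Normalized signal (y axis) of 12 rhythmic genes outside the core clock against ZT in hours (x axis); each point is 1 control mouse and the grey line is the fitted 24 h wave. Mmp3 and Il33 are high around ZT24 to ZT5, Pdk4 and Ucp3 form a block from ZT7 to ZT15, and Thrsp is highest at ZT18 and ZT19.

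How reads were assigned between near-identical sequences was not measured here. Rpl23a peaked at ZT9.42 (adjusted p = 0.0118) and Rpl23a-ps3 at ZT20.8 (adjusted p = 0.00647), in antiphase, but their sum stayed between 584 and 685 with an amplitude of 0.028 (limma, adjusted p = 0.888). The gene of mt-Atp8 (peak ZT7.85; adjusted p = 0.0314) overlaps mt-Atp6, so its value is uncertain, and no sum was tested. With the log2 ratio of Rpl23a-ps3 to Rpl23a as a linear term, 19 genes passed, 18 of them among the 72 and 9 from the core clock. The genes lost included Ciart, Pfkfb3, Igf2, Thrsp, Slc4a7, Pdk4, Ucp3 and Nop56, and those kept included Mmp3, Arhgap20, Spon2, Fbn1 and Thra. Amplitudes with that term were 0.68 against 0.77 for Ciart, 0.35 against 0.36 for Igf2, 0.65 against 0.75 for Thrsp and 0.18 against 0.19 for Nop56. They were 0.57 against 0.45 for Pfkfb3, 0.31 against 0.27 for Slc4a7, 1.57 against 1.17 for Pdk4 and 1.34 against 1.06 for Ucp3. Among core clock genes also lost, Bhlhe41 had 0.35 against 0.49, Cry2 0.27 against 0.21 and Clock 0.19 against 0.18. Rpl23a itself had 0.11 against 0.29. The ratio ran with the hour and with the title number, so amplitudes fitted beside it cannot be read apart from it. Its part in the lost calls was not tested.

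Of all 15989 genes tested, 0.45% passed and 1880 had an unadjusted p under 0.05. At that share, lists as small as those below would hold few calls or none if their genes were like all genes tested. No member passed among 11 basal and 12 suprabasal keratinocyte genes, 16 cornified envelope genes (13 peaked in ZT12 to 18), 14 sebaceous gland genes, 21 cholesterol synthesis genes, 14 endothelial genes, 14 macrophage and monocyte genes (11 peaked in ZT0 to 6), or 25 genes each of DNA replication and the proteasome. DNA replication genes had 6 members at an unadjusted p under 0.05 and 16 fitted peaks in ZT12 to 18, and the 19 mitosis genes had 12 in ZT0 to 6. The 16 tested hair follicle genes had a median amplitude of 0.79 and 10 unadjusted p-values under 0.05, but none passed (Tchh, trichohyalin, adjusted p = 0.103; from 13.5 at ZT1 to 346 at ZT15). Krt71 and Tchh were highest in the same library at ZT15. The 17 immediate early genes had no call and 16 fitted peaks in ZT18 to 24, with Klf4 the smallest p (adjusted p = 0.375). Of 17 listed neutrophil genes, 7 were tested and none passed. The summed neutrophil signal was at most 74.1, at ZT3, and Csf3r, the G-CSF receptor, was between 0.610 and 5.10 (adjusted p = 0.283).

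Among 20 tested modulators and known outputs of the clock, 2 passed, Leo1 and Tspan4, and 9 had an unadjusted p under 0.05. Of all 15989 genes tested, 1880 had such a p. Leo1 missed the threshold in 5 of the 35 alternative fits and Tspan4 in 26. Leo1, a subunit of the PAF1 elongation complex, peaked at ZT23.8 (20.2 at ZT10 to 32.1 at ZT21, 1.43-fold; adjusted p = 0.0201) and Tspan4, a tetraspanin, at ZT14.3 (22.2 at ZT5 to 39.3 at ZT10, 1.44-fold; adjusted p = 0.0435). Nampt, the rate-limiting enzyme of NAD salvage, did not pass (105 to 152; adjusted p = 0.275). Neither cold-induced RNA binding gene moved past the test, with Cirbp at an adjusted p of 0.549 and Rbm3 at 0.982.

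A 12 h component beside the 24 h wave was called in 0 of 15989 genes by limma (0%), and 580 genes had an unadjusted p under 0.05. The smallest adjusted p was 0.738, of the gene model Gm29408. Among named genes, Sox9, Il22ra2 and Lyve1 had the smallest p-values (adjusted p = 0.996 each). No other tool was run on it.

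The 2 other skin groups gave libraries that played no part in choosing the 72 genes. Fitted on its own, Bmal1-flox skin had 81 rhythmic genes of 15900 (0.509%). Of the 72 control rhythms, 22 passed there, 48 had an unadjusted p under 0.05 (11.3% of all genes tested in both did), and 57 had a fitted peak within 3 h of that in control, while 35.4% of all 15732 genes tested in both were that close. All 14 clock genes lay within 3 h and 12 of them passed. Cry2 did not (adjusted p = 0.293). Nr1d1 peaked at ZT7.69, Arntl at ZT1.26 and Dbp at ZT11.3. Outside the clock, 43 of 58 lay within 3 h and 10 passed: Mmp3, Arhgap20, Spon2, Il33, Col5a3, Cdc25b, Fmo1, Leo1, Rsad1 and Tspan4. Mmp3 peaked at ZT1.66 (amplitude 0.64; adjusted p = 0.00183), Arhgap20 at ZT2.66 (0.74; 0.0115), Il33 at ZT3.10 (0.50; 2.8e-04) and Fmo1 at ZT16.8 (0.35; 3.3e-04). Fbn1 (ZT4.61; adjusted p = 0.146) and Thra (ZT6.40; 0.0808) had near peaks and missed the threshold, while Igf2 was at ZT0.773 (0.858) and Sfrp2 at ZT18.1 (0.431). Rpl23a-ps3 had an amplitude of 0.22 there (adjusted p = 0.726), against 0.96 in control. Without the Bmal1-flox library at ZT4, in which the liver transcript Alb stood at 1182 (a choice made after seeing the data), 87 genes were rhythmic (0.548%), and of the 72 control rhythms 23 passed and 54 lay within 3 h.

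Fitted on its own, iDTR skin had 15 rhythmic genes of 15765 (0.0951%). All 14 clock genes again peaked within 3 h of control, and Npas2, Tef, Dbp and Per2 passed. Of the 58 others, 22 lay within 3 h (30.6% of all 15498 genes tested in both did) and none passed by limma, with 19 at an unadjusted p under 0.05 (17.5% of all genes tested in both). Mmp3 peaked at ZT1.79 (amplitude 0.27; adjusted p = 0.417) and Fbn1 at ZT9.15 (0.13; 0.668). Thrsp peaked at ZT18.4 with an amplitude of 0.74 against 0.75 in control, and did not pass (adjusted p = 0.0906). The block of Pdk4 had its fitted peak at ZT9.35 (1.00; 0.109).

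**Figure D5:**
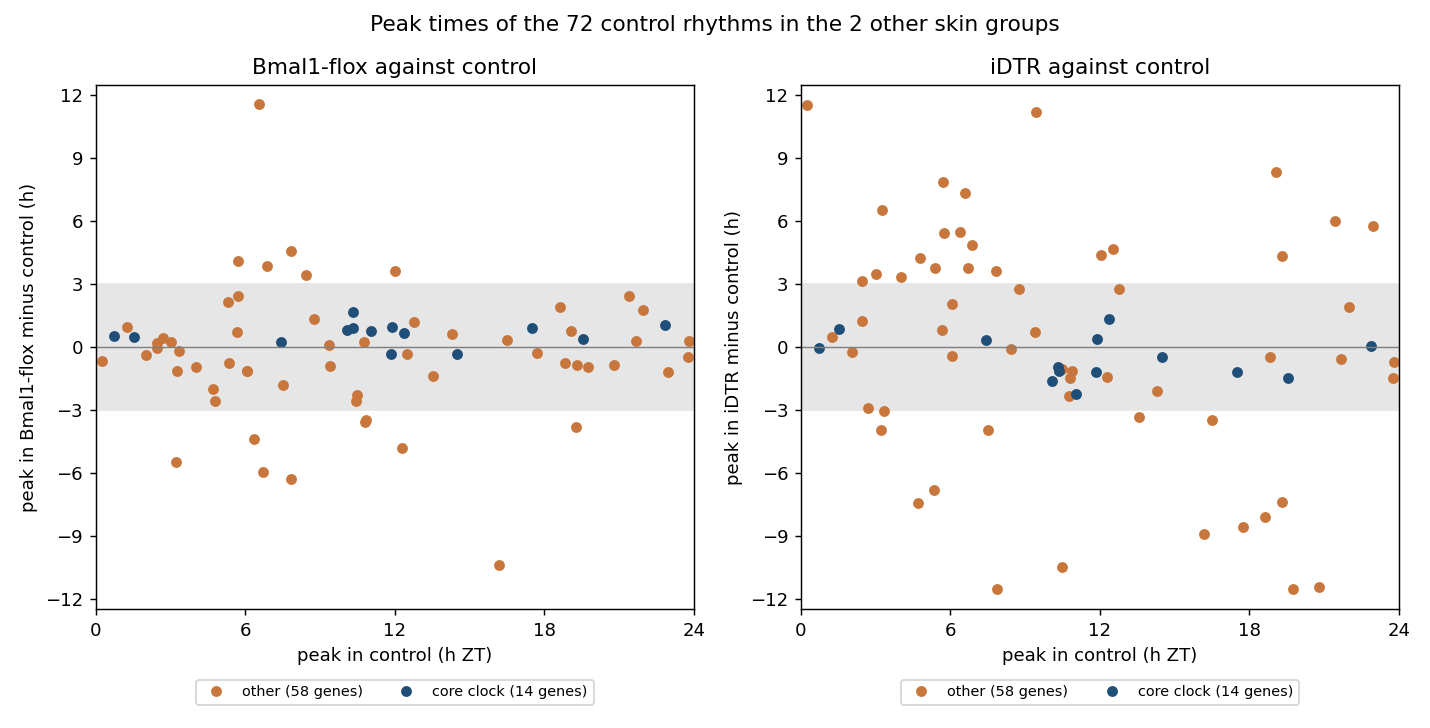
Each point is 1 of the 72 control rhythms, with its peak in control (h ZT) on the x axis and the difference of its peak in Bmal1-flox (left) or iDTR (right) from control in hours on the y axis; the grey band marks 3 h to each side. All 14 clock genes lie in the band in both panels; 43 of the 58 others do in Bmal1-flox and 22 in iDTR.

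Tested directly in a fit over all 47 skin libraries, no gene's wave differed between Bmal1-flox and control by limma (0 of 15946, 0%; 563 at an unadjusted p under 0.05, smallest adjusted p = 0.999). Amplitudes of Arntl, the floxed gene, were 0.58 (SE 0.070) in control and 0.60 (SE 0.073) in Bmal1-flox, both in whole skin. Between iDTR and control, the waves of 23 genes differed (0.144% of 15946), and no core clock gene was among them (Nfil3, the smallest p, adjusted p = 0.0763). Of these 23 genes, 4 were rhythmic in control: Sema3e, Rpl23a-ps3, mt-Atp8 and the gene model Gm37404. Sema3e had its peak at ZT17.7 in control and ZT9.17 in iDTR (adjusted p of the difference = 0.0409). Rpl23a-ps3 had amplitudes of 0.96 and 0.053 and mt-Atp8 of 0.45 and 0.23 (0.0409 each), and Gm37404 had an adjusted p of 0.0467. The mitotic genes Ccnb1, Ccnb2 and Cep55 had amplitudes of 0.10, 0.23 and 0.16 in control and of 0.68, 0.74 and 0.60 in iDTR with peaks between ZT21.6 and ZT22.2 (adjusted p of the difference = 0.0409 each). The count of 23 was 0 when any 1 of the control libraries at ZT1, 4, 5, 10, 12, 15, 16, 19 or 21 was left out, and 1 to 12 without that at ZT13, 18, 24 or 3.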

How the data were processed

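The deposited skin table holds a normalized signal per gene, made by the authors from single 50 nt reads of libraries built from 200 ng of total RNA, per the labels' protocols. The submitters' processing notes name CASAVA 1.8, cutadapt 1.7.1, RSEM 1.7.1 and limma 3.46, and mm10. The extraction protocol names Ensembl build 84, another RSEM version and Kallisto. The normalization method is not given in the sources used here. The values behave like RSEM's estimated counts plus 0.5 over a scaled library size, and at most 46.2% of recovered counts were whole, so no count test was run. Depth is the recovered total, and intervals from counting were not formed.

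Groups came from the labels. Values were transformed as log2(value + 1) and fitted in R 4.3.3 with limma 3.58.1 (moderated variance with a mean-variance trend, F test of the 24 h cosine and sine, two-sided, Benjamini-Hochberg over all genes with a mean of at least 1, threshold 0.05). The rhythm in control used the 16 control libraries, and differences between groups used all 47. Folds are peak to trough on the scale of value + 1. The fits were tested on simulated data. Symbols and coordinates came from GENCODE M21 on GRCm38, with 75 identifiers unmatched. Named genes are all members of the core clock list, the 24 smallest p-values and 10 largest amplitudes outside it past the threshold, up to 4 passing members of each list (2 where none passed), and the 8 smallest p-values of each differential rhythm (3 where fewer passed); gene models without a name, immunoglobulin and T cell receptor segments, pseudogenes and small RNAs were left out of these picks. Other genes named (among them Mthfd1l and Golim4, just outside the 72, Gm29408, and, from the 72, Lix1l, Rpl23a-ps3, Gm37404, Col6a6, Sfrp2, Loxl2, Plat, Cdon, Id3, Cdh3, Rsad1, Cdc25b, Snx18 and mt-Atp8) were chosen after their values were seen, as were the promoter windows and the fits of the other groups alone. The blocks of hours whose values are set side by side were also picked after the values were seen. Members and lists were chosen with earlier results of these data known. One core clock gene is counted in the totals and not otherwise reported here.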

Additional observations from a re-analysis of the deposited data

Results flagged for a closer look

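The 24 h wave differed between iDTR and control skin, by limma's F test of the difference over all 47 skin libraries, for 8 named genes, each with an adjusted p of 0.0409: Cotl1, Cpxm1, Lrrc17, Ccnb2, Sema3e, Cep55, Ccnb1 and Chka. The pseudogene Rpl23a-ps3 and mt-Atp8 had the same adjusted p of 0.0409 (amplitudes of 0.96 and 0.45 in control and of 0.053 and 0.23 in iDTR). Cotl1, an actin-binding protein, peaked at ZT6.39 in control (amplitude 0.26) and ZT18.9 in iDTR (0.22). Cpxm1, a secreted carboxypeptidase-like protein, peaked at ZT6.40 (0.30) and ZT15.3 (0.43). Lrrc17 had amplitudes of 0.20 and 0.51, with group means of 22.3 and 8.46. Chka, choline kinase alpha, had amplitudes of 0.094 and 0.44 and group means of 26.6 and 44.0. Sema3e had group means of 22.8 and 11.7. The group means of Ccnb1, Ccnb2 and Cep55 were 20.8, 11.8 and 7.41 in control and 47.4, 26.3 and 18.7 in iDTR. Leaving out 1 control library at a time left between 0 and 31 genes.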

How the results depend on the processing

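The count of 72 rhythmic genes was 38 with no mean-variance trend, 32 with the number in the mouse's title (which orders the hours from ZT4) as a linear term, 43 with log2 depth as a term, 77 with array weights, 95 with the skeletal muscle mean as a term, and, in fits added after seeing the data, 35 with the hair follicle mean, 19 with the log2 Rpl23a-ps3 to Rpl23a ratio, and 47 less the libraries at ZT15 and ZT19 together. Genes lost with the hair follicle mean included Slco2a1, Cacna1g, Il33, Fmo1, Cry2 and Leo1. Leaving out 1 control library gave 42 to 72 genes, with 45, 42 and 46 without the libraries at ZT24, ZT1 and ZT3. In all 35 alternative fits, 13 of the 72 passed (Nr1d1, Dbp, Nr1d2, Cry1, Tef, Per2, Npas2, Arntl, Per3, Mmp3, Arhgap20, Fbn1 and Thra); 14 missed the threshold in 20 or more, among them Clock, Ucp3, Slc2a1, Tspan4, Polr1b, Slc25a34, Col6a6, Cdc25b, Lypd6, Lix1l, Plin3, Bicc1 and Eya1. Over 48 named genes and 1677 fits of a gene, 247 lost and 4 gained the call, and the cause was not tested. By a rule set at a peak shift of 6 h, 0 were reversed. Smaller shifts were not counted. Over the fits the peak lay between ZT6.84 and ZT11.4 for Hlf, which did not pass, and between ZT1.33 and ZT2.62 for Npas2.

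The count of 23 differing waves between iDTR and control was 41 with a pseudocount of 5, 15 after quantile normalization, 0 with no filter and 0 with no trend, and 0 to 31 without 1 control library. With the replicate block it was 155, and that for Bmal1-flox was 0. The numbers share only an hour: residuals of same-numbered control and iDTR mice had a median correlation of 0.012 (-0.19 to 0.28, 2 of 16 over 0.1) and 0 of 16 mice correlated best with their own number. The 12 h and Bmal1-flox counts were 0 in every alternative run. With 1 mouse per hour, an hour and a mouse cannot be told apart.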
